A study of Mus musculus with 20 samples.

Results

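Kidney transcripts of 8 enzymes that oxidise hydroxyacids, D-amino acids, sarcosine, proline and hydroxyproline, or that remove glyoxylate, were followed across androgen treatment in wild type and ARLmon mutant mice. The genes Hao2, Grhpr, Agxt2, Dao, Ddo, Pipox, Prodh2 and Prodh were chosen by symbol from 24762 genes counted in 20 kidney libraries. Earlier results of these data were known when these genes and the pathway lists below were chosen. Shares of all genes set beside their counts are therefore a description. All 8 passed the filter on low counts and were among the 15549 genes tested. All male mice had their testes removed, and kidney RNA was taken after 4 days of testosterone or vehicle. There were 4 groups of 5 libraries: ARLmon/Y with testosterone, ARLmon/Y with vehicle, wild type C57BL/6J with testosterone, and wild type C57BL/6J with vehicle. ARLmon/Y is the mutant genotype, carried here by hemizygous males. Orchidectomy was common to all groups, so the vehicle groups were castrated and not intact animals. The labels give neither an age nor the animal behind each library, and a p below therefore describes the spread between these libraries.

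Part of this group acts around glyoxylate, the immediate precursor of oxalate. Hydroxyproline from collagen is oxidised in mitochondria by hydroxyproline dehydrogenase, the product of Prodh2, and its breakdown ends in glyoxylate, which Grhpr reduces to glycolate and Agxt2 can transaminate to glycine. The oxidases encoded by Hao2, Dao, Ddo and Pipox are peroxisomal flavoproteins that release hydrogen peroxide, and the proximal tubule is a main site of kidney D-amino acid oxidase.

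Reads assigned to genes numbered 8342000 to 38101526 per library, and the 8 genes had between 260 and 34765 reads each in any one library. Values are CPM, with library sizes adjusted by TMM factors. As a check of the labels, the androgen-responsive gene Odc1 averaged 188 ± 26.8 and 202 ± 24.2 CPM in ARLmon kidneys with testosterone and with vehicle, and 1509.7 ± 119 and 206 ± 32.4 CPM in wild type kidneys with testosterone and with vehicle (mean ± SD, n = 5 libraries a group, as in all means given). Kap, which encodes kidney androgen-regulated protein, averaged 6450.5 ± 1307 and 8184 ± 4642 CPM in ARLmon kidneys with testosterone and with vehicle. It averaged 39464 ± 5353 and 14797 ± 7845 CPM in wild type kidneys with testosterone and with vehicle. Its log2 difference for testosterone in wild type was 1.42 ± 0.32 (SE, edgeR adjusted p = 0.00329). Kap varied widely with vehicle. Wild type vehicle library GC078604 had 28612 CPM, near the lowest wild type testosterone library (30856 CPM), and the rest of its group had 9972 to 13352 CPM. ARLmon vehicle library GC078618 had 15542 CPM, against 4236 to 9945 CPM in the rest of its group. The kidney proximal tubule markers Lrp2, Cubn, Slc34a1, Slc5a2, Slc27a2 and Slc22a6 were detected in every group, at a summed 10641 to 12865 CPM in ARLmon testosterone libraries, 9677 to 12263 CPM in ARLmon vehicle libraries, 15411 to 17606 CPM in wild type testosterone libraries and 8959 to 15187 CPM in wild type vehicle libraries.

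In wild type kidneys testosterone changed 4 of the 8 genes, 2 in each direction, where 15.7% of all tested genes passed the test. Hao2 and Prodh2 fell (log2 difference -2.48 and -1.89), Dao and Pipox rose by 0.34 and 0.39, and Grhpr, Agxt2, Ddo and Prodh did not pass the test. In ARLmon kidneys none of the 8 passed it, and 0.0% of all tested genes did, so this is not particular to the 8. With testosterone, ARLmon kidneys had more Hao2 and Prodh2 RNA than wild type kidneys and less Grhpr, Dao, Pipox and Ddo RNA. With vehicle, Pipox alone of the 8 differed between the genotypes, where 4.37% of all tested genes did.

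A gene was called at a Benjamini-Hochberg adjusted p below 0.05 in edgeR's quasi-likelihood test, adjusted over all 15549 genes. In wild type, 4 of 8 genes were called, 2 in each direction, where 15.7% of all tested genes were called, 9.36% higher and 6.36% lower. In ARLmon, 0 of 8 were called with testosterone, and 0.0% of all genes, and 0 of 8 had groups without overlap, where 0.778% of all genes did. DESeq2 and limma-voom also called none there, and 813, 844 and 808 genes had an unadjusted p below 0.05 in edgeR, DESeq2 and limma-voom, none of them among the 8. For ARLmon against wild type, 6 of 8 were called with testosterone, where 31.1% of all genes were called. Of the 6, 2 were higher and 4 lower in ARLmon, against 15.6% and 15.5% of all genes. With vehicle 1 of 8 was called, and it was lower in ARLmon, where 4.37% of all genes were called and 2.38% were called lower. The comparisons share libraries: the wild type testosterone group stands in both the wild type treatment comparison and the testosterone comparison of genotypes, so their values are given side by side and not as independent results. The median size of the log2 difference over the 8 genes, in either direction, was 0.36 for testosterone in wild type, where it was 0.22 over all genes, and 0.10 for testosterone in ARLmon, where it was 0.14. In this bulk RNA, fewer cells of a type and less RNA per cell cannot be told apart.

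**Figure D1:**
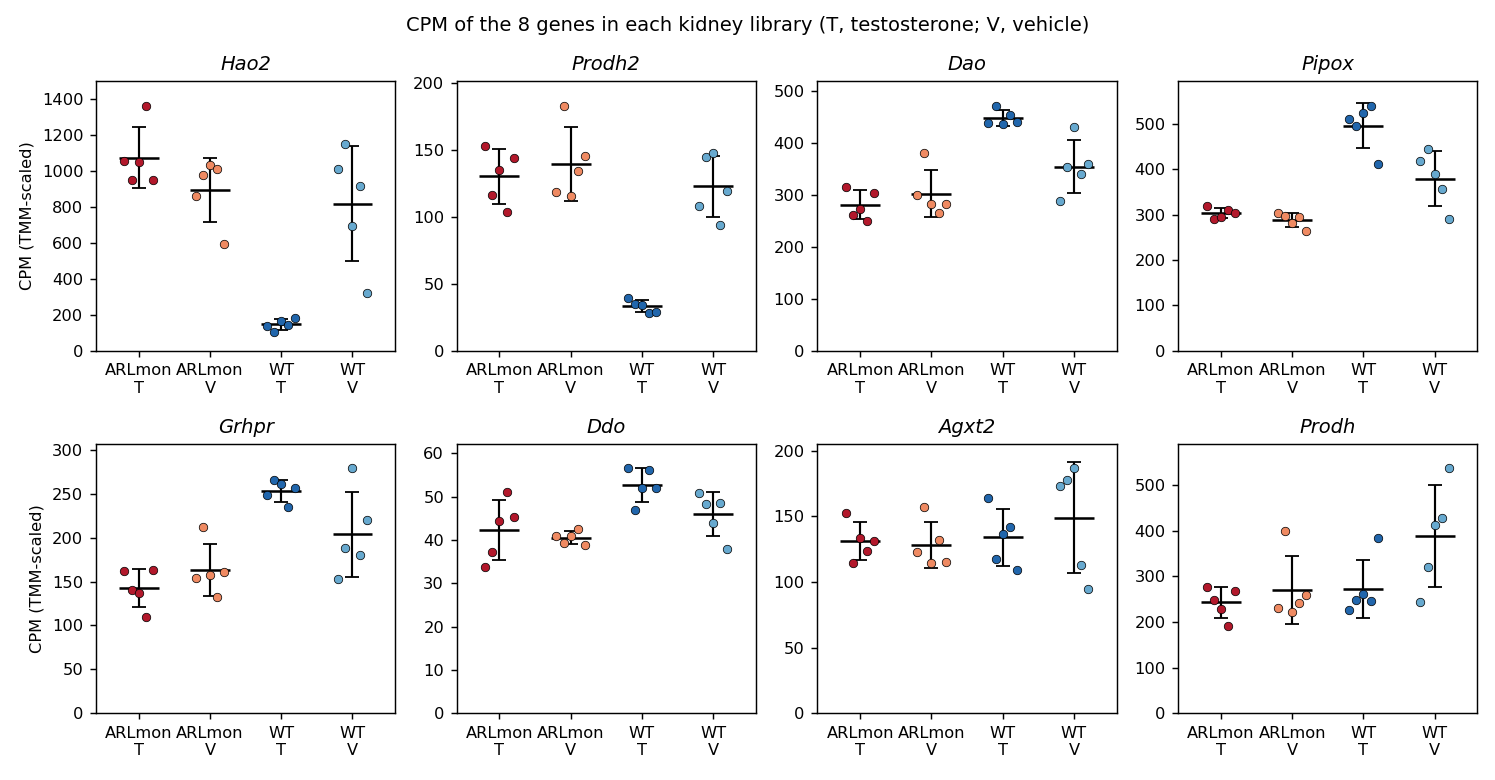
CPM of each of the 8 genes (y axis, linear, from 0) in each library, by group (x axis; T, testosterone; V, vehicle). Points are libraries, horizontal lines are means and bars are SD (n = 5 per group). The wild type testosterone libraries lie below all others for Hao2 (104 to 183 CPM) and Prodh2 (28.2 to 39.3 CPM), and above all others for Dao (436 to 472 CPM).

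Levels were compared between genes as CPM per kb of annotated exon. In wild type vehicle kidneys Hao2 was first with 399 ± 157 CPM per kb, followed by Pipox with 154 ± 24.2, Grhpr with 127 ± 30.1 and Dao with 120.0 ± 17.2. The libraries of these neighbours overlapped in that order. Prodh2 with 50.0 ± 9.41, Prodh with 49.8 ± 14.2 and Agxt2 with 47.0 ± 13.3 CPM per kb formed a second tier whose libraries also overlapped, and Ddo was last with 5.15 ± 0.57. In wild type testosterone kidneys the order changed: Pipox led with 201 ± 20.1 CPM per kb, Hao2 stood below Grhpr and Dao with 71.7 ± 14.8, and Prodh2 fell below Agxt2 and Prodh to 13.5 ± 1.84. In ARLmon kidneys Hao2 stayed in first place with 523 ± 83.0 CPM per kb with testosterone and 436 ± 87.7 with vehicle, with no overlap with any other of the 8. Exon length joins all annotated exons of a gene and was longest for Ddo (8925 bases) and Prodh (7797 bases). Levels per kb are low estimates if part of that length is not used in kidney, which was not tested.

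Hao2 (chromosome 3, 98874521 to 98893239, minus strand, GRCm38) encodes hydroxyacid oxidase 2, which oxidises 2-hydroxy fatty acids in peroxisomes. The wild type testosterone libraries held 138, 104, 168, 142 and 183 CPM, against 1010.4, 1145, 692, 916 and 323 CPM in wild type vehicle libraries. All testosterone libraries were below all vehicle libraries, and the vehicle library GC078606 was the lowest of its group. The log2 difference was -2.48 ± 0.25 (SE here and throughout; edgeR adjusted p = 2.98e-07). Without GC078606, which also had the lowest summed proximal tubule markers and the highest summed hepatocyte markers (136 CPM, against 43.1 to 54.7 CPM in the rest of its group), the difference was larger, -2.68, and the part of those markers in its level was not tested.

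The ARLmon testosterone libraries held 1051, 949, 1049.6, 1361 and 946 CPM of Hao2, and the ARLmon vehicle libraries 857, 973, 1032, 1009 and 595 CPM. These groups overlapped, and the log2 difference for testosterone was 0.26, between -0.23 and 0.75 (95% interval; edgeR adjusted p = 0.776). That interval does not reach the fall measured in wild type kidneys. Against wild type with testosterone, ARLmon kidneys were higher by 2.87 ± 0.25 (edgeR adjusted p = 1.99e-08), with every ARLmon library above every wild type library. With vehicle the genotypes overlapped and differed by 0.13 (95% interval -0.36 to 0.62). The testosterone effect in ARLmon minus that in wild type, tested as an interaction, was 2.74 ± 0.34 (edgeR adjusted p = 2.15e-05).

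Prodh2 (chromosome 7, 30493622 to 30513402, plus strand) encodes the enzyme of the first step of hydroxyproline breakdown. Its wild type testosterone libraries had 39.3, 34.7, 34.5, 28.2 and 29.2 CPM, against 108, 145, 148, 94.2 and 119 CPM in wild type vehicle libraries. The highest testosterone library was below the lowest vehicle library. The log2 difference was -1.89 ± 0.15 (edgeR adjusted p = 1.23e-08), and it ran from -1.98 to -1.82 when each library was left out in turn.

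In ARLmon kidneys Prodh2 stood at 153, 116, 135, 103 and 144 CPM with testosterone, against 118, 183, 115, 135 and 146 CPM with vehicle. The groups overlapped, with a log2 difference of -0.10 and a 95% interval of -0.40 to 0.20. Against wild type, ARLmon was higher with testosterone by 1.98 ± 0.15 (edgeR adjusted p = 2.43e-09), again without overlap, and with vehicle the difference was 0.18 (95% interval -0.12 to 0.49). The interaction was 1.80 ± 0.21 (edgeR adjusted p = 8.85e-06). Hao2 and Prodh2 were the 2 of 8 genes whose testosterone effect differed between genotypes by this test, which called 4.77% of all genes and 1.42% in this direction. The interactions of Grhpr (-0.51, edgeR adjusted p = 0.186) and Dao (-0.44, edgeR adjusted p = 0.107) were not called with all libraries in. Without the wild type vehicle library GC078604 both were called (edgeR adjusted p = 0.0325 for Grhpr and 0.0309 for Dao).

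The promoters of the strongest responders are shown because Hao2 and Prodh2 moved in the same direction in every comparison that called them. The windows are the 250 bases before the gene start in RefSeq (GRCm38.p6), written 5′ to 3′ on the gene's strand, and capitals mark each match to the half-site of the homeodomain factor HNF1, GTTAAT on either strand. The Hao2 window is chr3:98893231-98893480 (minus strand) and the Prodh2 window is chr7:30493408-30493657 (plus strand).
Hao2: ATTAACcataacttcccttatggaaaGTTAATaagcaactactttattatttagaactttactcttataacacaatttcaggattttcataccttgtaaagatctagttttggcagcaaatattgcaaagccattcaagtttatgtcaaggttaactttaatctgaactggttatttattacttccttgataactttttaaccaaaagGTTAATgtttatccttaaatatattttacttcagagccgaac
Prodh2: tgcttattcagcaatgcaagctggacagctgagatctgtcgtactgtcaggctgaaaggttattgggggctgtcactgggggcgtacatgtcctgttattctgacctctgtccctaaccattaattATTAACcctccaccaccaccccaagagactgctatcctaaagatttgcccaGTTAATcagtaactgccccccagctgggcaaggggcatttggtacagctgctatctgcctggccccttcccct
The Hao2 window holds 3 half-sites, starting at positions -250, -224 and -42 from the gene start, and the Prodh2 window holds 2, starting at -124 and -73. Of 32851 RefSeq windows of this length, 6.43% hold at least 1 half-site, 0.441% at least 2 and 0.0213% at least 3. The Hao2 window is also poor in G and C, with 28.4%, and 0.956% of windows have less. The motif was chosen with these letters in view, so its shares are a description.

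No window of the 8 genes held the full androgen response element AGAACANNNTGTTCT or the full HNF1 site GTTAATNATTAAC, each of which 0.00913% of all windows hold. The half-site AGAACA, a part of the full element, was in 16.1% of all windows and in 1 of the 11 windows of these genes, that of the third listed start of Dao. Agxt2 held the HNF4 core CAAAGTCCA (0.384% of windows) and, on its other strand, the TATA box TATAAA (12.4%), and Prodh held the STAT5 site TTCNNNGAA (7.02%). Each motif was searched on both strands, and these matches are letters in a window, not measured sites.

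Among the oxidases of amino acids, Pipox (chromosome 11, 77880615 to 77894096, minus strand), which encodes peroxisomal sarcosine and pipecolic acid oxidase, rose with testosterone in wild type. Its wild type testosterone libraries had 510.4, 496, 523, 540.3 and 412 CPM, against 418, 444, 389, 355 and 290.2 CPM in wild type vehicle libraries. Most testosterone libraries were higher, but the groups overlapped through GC078611. The log2 rise was 0.39 ± 0.10 (edgeR adjusted p = 0.00956), and with library size as the only scaling it was 0.24 and was not called (edgeR adjusted p = 0.0772).

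Pipox had 318, 289.9, 294, 309 and 304 CPM in ARLmon testosterone libraries and 303, 298, 281, 296 and 263 CPM in ARLmon vehicle libraries. Testosterone made a log2 difference of 0.07 there (95% interval -0.13 to 0.28). ARLmon was below wild type with testosterone by a log2 difference of -0.71 ± 0.10 (edgeR adjusted p = 1.23e-05), without overlap, and with vehicle by -0.40 ± 0.10 (edgeR adjusted p = 0.0224), with overlap. Leaving out GC078602, GC078603, GC078619 or GC078621 ended the vehicle call (highest edgeR adjusted p = 0.0723). Its testosterone effects did not differ between genotypes past the threshold (interaction -0.31 ± 0.14, edgeR adjusted p = 0.254).

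Dao (chromosome 5, 114003703 to 114025682, plus strand) encodes the oxidase of neutral D-amino acids such as D-serine. It had 439, 472, 436, 455 and 439.5 CPM in wild type testosterone libraries, against 288, 354, 429.9, 341 and 359 CPM in wild type vehicle libraries. The groups did not overlap, as was true of 3 of the 8 genes and of 12.6% of all genes. The log2 rise was 0.34 ± 0.11 (edgeR adjusted p = 0.0345). Leaving out any of GC078602, GC078603 or GC078605 to GC078611 ended this call (highest edgeR adjusted p = 0.0857), as did fitting with library size as the only scaling, where the rise was 0.19 (edgeR adjusted p = 0.164).

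For Dao in ARLmon, the testosterone libraries held 316, 262, 272, 250.5 and 304 CPM and the vehicle libraries 300.5, 380.2, 283, 264 and 282 CPM. The treatment groups overlapped, with a difference of -0.11 (95% interval -0.33 to 0.12). Against wild type with testosterone, ARLmon had a log2 difference of -0.67 ± 0.11 (edgeR adjusted p = 5.91e-05), and every ARLmon library was below every wild type one. With vehicle the difference was -0.23 ± 0.11 (edgeR adjusted p = 0.263).

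Ddo (chromosome 10, 40630011 to 40681847, plus strand), which encodes the oxidase of the acidic D-amino acids D-aspartate and D-glutamate, had the fewest reads per kb of the 8. Its values were 56.5, 46.9, 52.0, 56.0 and 52.0 CPM in wild type testosterone libraries, against 50.9, 48.4, 43.9, 48.6 and 38.0 CPM in wild type vehicle libraries. The groups overlapped and the difference, 0.20 ± 0.10, was not called (edgeR adjusted p = 0.212). ARLmon libraries held 33.8, 37.2, 44.3, 51.1 and 45.2 CPM with testosterone and 40.8, 39.2, 41.0, 42.6 and 38.8 CPM with vehicle. With testosterone ARLmon was lower than wild type (-0.31 ± 0.10, edgeR adjusted p = 0.0238), with overlap, and this call was lost with library size as the only scaling, where the difference was -0.07. Leaving out GC078607, GC078610, GC078612 or GC078613 also ended it (highest edgeR adjusted p = 0.0707).

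Dao and Ddo act on different classes of D-amino acids, and the ratio of their read counts within a library, which depends on neither depth nor scaling, averaged 6.83 ± 1.63 and 7.49 ± 1.32 in ARLmon kidneys with testosterone and vehicle and 8.55 ± 0.89 and 7.85 ± 1.74 in wild type kidneys with testosterone and vehicle. No pair of groups differed past the threshold with all libraries in. The largest difference in log2 ratio was -0.35, for ARLmon minus wild type with testosterone (two-sided exact permutation p = 0.0635, adjusted p = 0.127 over 8 tests of 2 ratios). Without the ARLmon library GC078612 it was -0.47 and was called (exact permutation, adjusted p = 0.0159).

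Of the glyoxylate-removing enzymes, Grhpr (chromosome 4, 44981395 to 44990734, plus strand) encodes glyoxylate and hydroxypyruvate reductase, whose loss in humans causes a form of primary hyperoxaluria. It had 248, 266, 261, 234 and 256 CPM in wild type testosterone libraries, against 153, 188, 279, 180.1 and 219.6 CPM in wild type vehicle libraries. The testosterone values were packed more closely, with an SD of 12.3 CPM, against 48.2 CPM with vehicle, where GC078604 exceeded all testosterone libraries. The difference of 0.31 ± 0.14 was not called (edgeR adjusted p = 0.151), and without GC078604 it was 0.45 and called (edgeR adjusted p = 0.0230).

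Grhpr stood at 162, 140.3, 137, 109.9 and 163 CPM in ARLmon testosterone libraries and 154, 212, 157, 132 and 161 CPM in ARLmon vehicle libraries. The difference for testosterone was -0.20 (95% interval -0.50 to 0.10). Against wild type with testosterone, ARLmon was lower (log2 difference -0.83 ± 0.14, edgeR adjusted p = 1.56e-04), and the groups did not overlap. That held for 5 of the 8 genes in this comparison, all of the called ones but Ddo, and for 22.5% of all genes.

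Agxt2 (chromosome 15, 10358532 to 10410153, plus strand), which encodes the mitochondrial aminotransferase that uses glyoxylate, beta-aminoisobutyrate and dimethylarginine, was called in no comparison. Its group means were 131 ± 14.1 and 128 ± 17.5 CPM in ARLmon kidneys with testosterone and vehicle, and 134 ± 21.4 and 149 ± 42.2 CPM in wild type kidneys with testosterone and vehicle. The wild type vehicle libraries ran from 94.4 to 187 CPM, which spans all the other groups. The 95% interval for testosterone was -0.30 to 0.37 in ARLmon and -0.49 to 0.18 in wild type. It shares 155 exon bases, 4.90% of its exons, with the predicted gene Gm21973 on the same strand, so a small part of its reads may be split between them or left uncounted.

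Prodh (chromosome 16, 18060357 to 18090203, minus strand) encodes mitochondrial proline dehydrogenase, the counterpart of the Prodh2 product for proline itself. Its wild type testosterone libraries held 226, 247, 260.1, 246 and 383 CPM, against 245, 319.7, 412, 428 and 536 CPM in wild type vehicle libraries. Most testosterone libraries were low, and GC078611 and GC078602 made the groups overlap. The difference of -0.51 ± 0.20 was not called (edgeR adjusted p = 0.0823). It was called without either of those libraries, at -0.64 without GC078602 (edgeR adjusted p = 0.0225), without the ARLmon library GC078618, and with library size as the only scaling (-0.66, edgeR adjusted p = 0.0190).

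ARLmon libraries had 277, 249, 228, 192 and 268 CPM of Prodh with testosterone, and 230.4, 399.7, 221, 241 and 259 CPM with vehicle. The ARLmon vehicle library GC078618 stood above the rest of its group. The Prodh difference between genotypes was -0.17 ± 0.19 with testosterone (edgeR adjusted p = 0.553) and -0.52 ± 0.19 with vehicle (edgeR adjusted p = 0.145). Without GC078618 the vehicle difference was -0.71 and was called (edgeR adjusted p = 0.0310). It was also called without both GC078604 and GC078618 (-0.68, edgeR adjusted p = 0.0421).

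**Figure D2:**
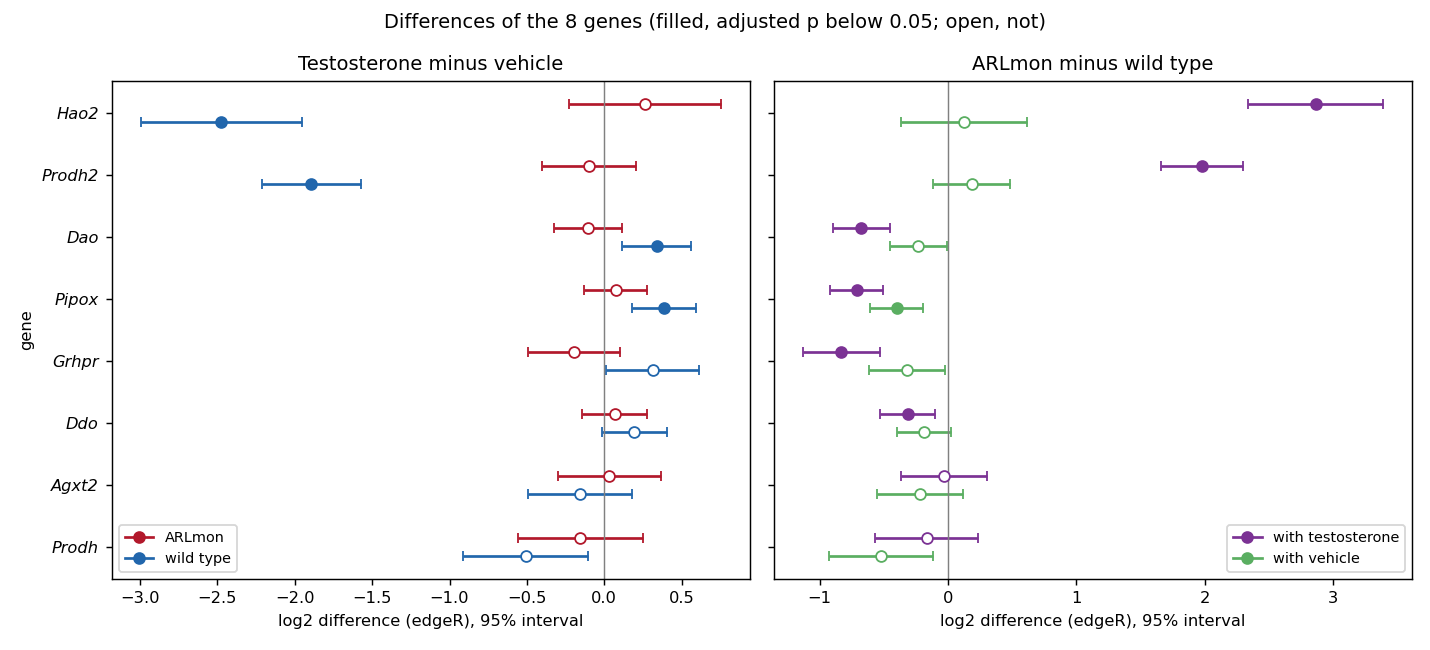
Log2 differences from edgeR (x axes) for each of the 8 genes (y axis), for testosterone minus vehicle in each genotype (left) and ARLmon minus wild type in each treatment (right). Circles are estimates and bars 95% intervals, and filled circles have an adjusted p below 0.05. In wild type the estimates run from -2.48 for Hao2 to 0.39 for Pipox, while in ARLmon all 8 intervals for testosterone include 0.

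The balance of the 2 dehydrogenase genes was measured as the ratio of Prodh2 to Prodh read counts within each library. The ratio was 0.553, 0.468, 0.594, 0.539 and 0.538 in ARLmon testosterone libraries and 0.514, 0.459, 0.523, 0.559 and 0.565 in ARLmon vehicle libraries. It was 0.174, 0.140, 0.133, 0.115 and 0.0762 in wild type testosterone libraries, against 0.443, 0.453, 0.358, 0.220 and 0.223 in wild type vehicle libraries. The ARLmon groups overlapped each other and lay above both wild type groups, and wild type testosterone lay below wild type vehicle. In mean log2 ratio, the testosterone effect was -1.39 for wild type kidneys and 0.04 for ARLmon kidneys, while ARLmon minus wild type was 2.13 with testosterone and 0.69 with vehicle.

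The wild type treatment difference and both genotype differences had the smallest p that 252 splits of 5 against 5 allow (two-sided exact permutation p = 0.00794, adjusted p = 0.0212 over 8 tests). For testosterone in ARLmon the exact permutation p was 0.611 (adjusted p = 0.698). The genotype difference with vehicle lost its call without any one ARLmon vehicle library, GC078617 to GC078621 (exact permutation, adjusted p between 0.0635 and 0.0847). The difference itself stayed between 0.665 and 0.74 in these fits and the groups still did not overlap. Fits without a wild type vehicle library also leave fewer splits than 252, and there the call was kept. Why it was lost only without an ARLmon vehicle library was not tested. Prodh2 and Prodh did not each pass the test with vehicle, so that difference in the ratio combines a Prodh2 difference of 0.18 with a Prodh difference of -0.52.

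**Figure D3:**
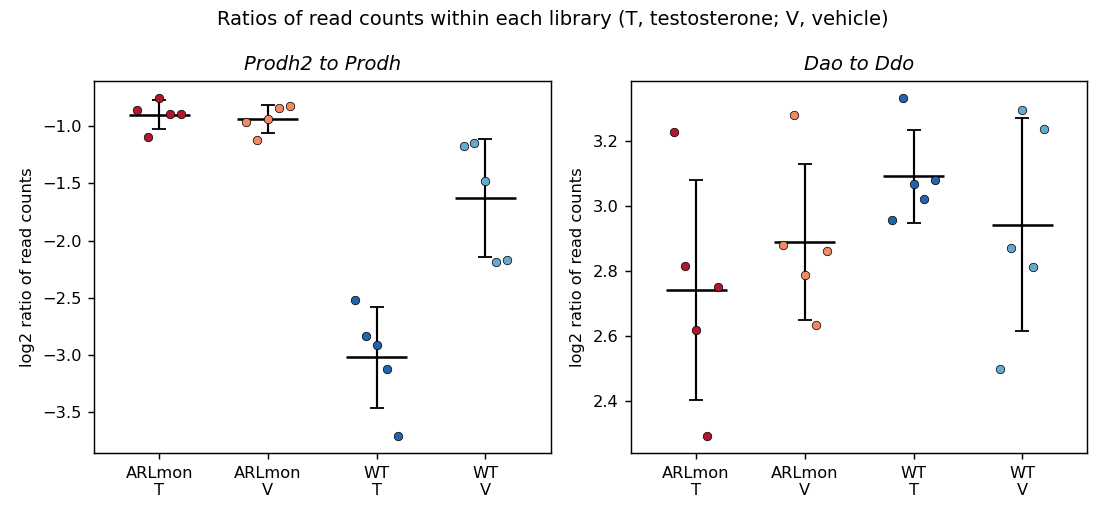
Log2 ratio of read counts within each library (y axes) for Prodh2 to Prodh (left) and Dao to Ddo (right), by group (x axis; T, testosterone; V, vehicle). Points are libraries, lines are means and bars are SD (n = 5 per group). The Prodh2 to Prodh means are -0.90, -0.94, -3.02 and -1.63 from left to right, and the Dao to Ddo groups all overlap.

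ARLmon kidneys given testosterone were also set beside wild type kidneys given vehicle, which asks how far the treated mutant resembled a castrated wild type. None of the 8 genes was called, where 3.03% of all genes were, and the groups overlapped for each of the 8, where 3.9% of all genes had groups without overlap. The differences were 0.39 for Hao2 (95% interval -0.10 to 0.88) and 0.09 for Prodh2 (-0.22 to 0.39). Grhpr (-0.52), Dao (-0.34), Pipox (-0.33) and Prodh (-0.68) had edgeR adjusted p-values between 0.0531 and 0.103, and DESeq2 called these 4 genes lower in the treated mutant, with adjusted p-values between 0.0160 and 0.0455.

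The other genes of these pathways were read from 6 lists with 60 genes, of which 54 could be tested. In wild type, testosterone raised 16 and lowered 8 of the 54, with a median log2 difference of 0.10, where the median over all genes was -0.03 and 9.36% of all genes were called higher and 6.36% lower. The same shares of all genes stand behind each wild type count of the 6 lists given below. In ARLmon, 0 of the 54 were called and the median was 0.00. ARLmon minus wild type called 8 higher and 23 lower with testosterone, where 15.6% of all genes were called higher and 15.5% lower, and 2 higher and 4 lower with vehicle, where 4.37% of all genes were called. The vehicle count of 6 was 3 on the deposited log2 table. Up to 3 genes with the smallest p are named for each list.

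Of 9 tested genes of the hydroxyproline and glyoxylate route, 4 rose and none fell in wild type. They included Glyctk (0.73 ± 0.10, edgeR adjusted p = 2.52e-05), which encodes glycerate kinase, Hoga1 (0.58 ± 0.11), which encodes the aldolase that releases glyoxylate from the hydroxyproline product, and Slc26a1 (0.49 ± 0.08), which encodes an oxalate and sulfate exchanger. Prodh2, at the head of the route, fell while Hoga1, at its end, rose. In this list 1 gene was higher and 5 were lower in ARLmon than in wild type with testosterone, with Glyctk at -0.94, Hoga1 at -0.78 and Slc26a1 at -0.68. With vehicle, Glyctk (-0.41) and Ldha (-0.34), which encodes a lactate dehydrogenase subunit, were lower in ARLmon. Agxt, the peroxisomal counterpart of Agxt2, had 10 reads over all 20 libraries and was not tested, and Hao1 was not analysed here.

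Among 10 genes of sarcosine and glycine metabolism, 2 rose and 2 fell with testosterone in wild type. The serine hydroxymethyltransferase genes moved apart, cytosolic Shmt1 by -0.98 ± 0.07 (edgeR adjusted p = 3.13e-09) and mitochondrial Shmt2 by 0.63 ± 0.10 (edgeR adjusted p = 8.83e-05). Bhmt, for betaine-homocysteine methyltransferase, fell by 2.22 ± 0.60 on the log2 scale, at low levels. It averaged 10.8 and 10.6 CPM in ARLmon kidneys with testosterone and vehicle, and 1.00 and 5.32 CPM in wild type kidneys with testosterone and vehicle. In ARLmon against wild type with testosterone, Shmt1 was at 0.98, Shmt2 at -0.85 and Bhmt at 3.36.

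Of 7 genes of proline synthesis and recycling, 2 rose and 1 fell in wild type with testosterone. Oat, for ornithine aminotransferase, averaged 495 and 456 CPM in ARLmon kidneys with testosterone and vehicle, and 146 and 251 CPM in wild type kidneys with testosterone and vehicle. It fell in wild type by 0.78 on the log2 scale, and was higher in ARLmon than in wild type with testosterone (1.76 ± 0.10) and with vehicle (0.86 ± 0.10). Pepd, which encodes the peptidase that frees proline from collagen dipeptides, rose by 0.51 ± 0.10, and the transporter gene Slc6a20b rose by 0.47 ± 0.14.

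Of 8 serine, D-serine and 2-hydroxyacid dehydrogenase genes, 2 rose and 2 fell in wild type with testosterone. Ldhd, for mitochondrial D-lactate dehydrogenase, had means of 335 and 321 CPM in ARLmon kidneys with testosterone and vehicle, and 2103 and 1060 CPM in wild type kidneys with testosterone and vehicle. It rose in wild type by 0.99 ± 0.11 and was lower in ARLmon than in wild type with testosterone (-2.65 ± 0.11) and with vehicle (-1.72 ± 0.11). Phgdh, of serine synthesis, changed by -0.72 ± 0.16, and Srr, whose product makes the Dao substrate D-serine, by 0.28 ± 0.08 (edgeR adjusted p = 0.0248).

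Of 12 peroxisome import and oxidase genes, 4 rose and 1 fell in wild type. The import gene Pex19 rose by 0.40 ± 0.08. Hacl1, which encodes a peroxisomal 2-hydroxyacyl-CoA lyase, fell (log2 difference -1.27 ± 0.11, edgeR adjusted p = 1.64e-08). Hao2 also acts on 2-hydroxy acids, and both genes were lower with testosterone in wild type and higher in ARLmon than in wild type with testosterone (1.78 ± 0.11 for Hacl1). With vehicle Hacl1 was also higher in ARLmon than in wild type (0.46 ± 0.10, edgeR adjusted p = 0.0102), where Hao2 was not called. Of 8 genes of beta-aminoisobutyrate and dimethylarginine metabolism, the Agxt2 substrates, 2 rose and 2 fell, with Dpys at -1.72 ± 0.16, Upb1 at 0.62 ± 0.11 and Ddah1 at 0.44 ± 0.08.

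**Figure D4:**
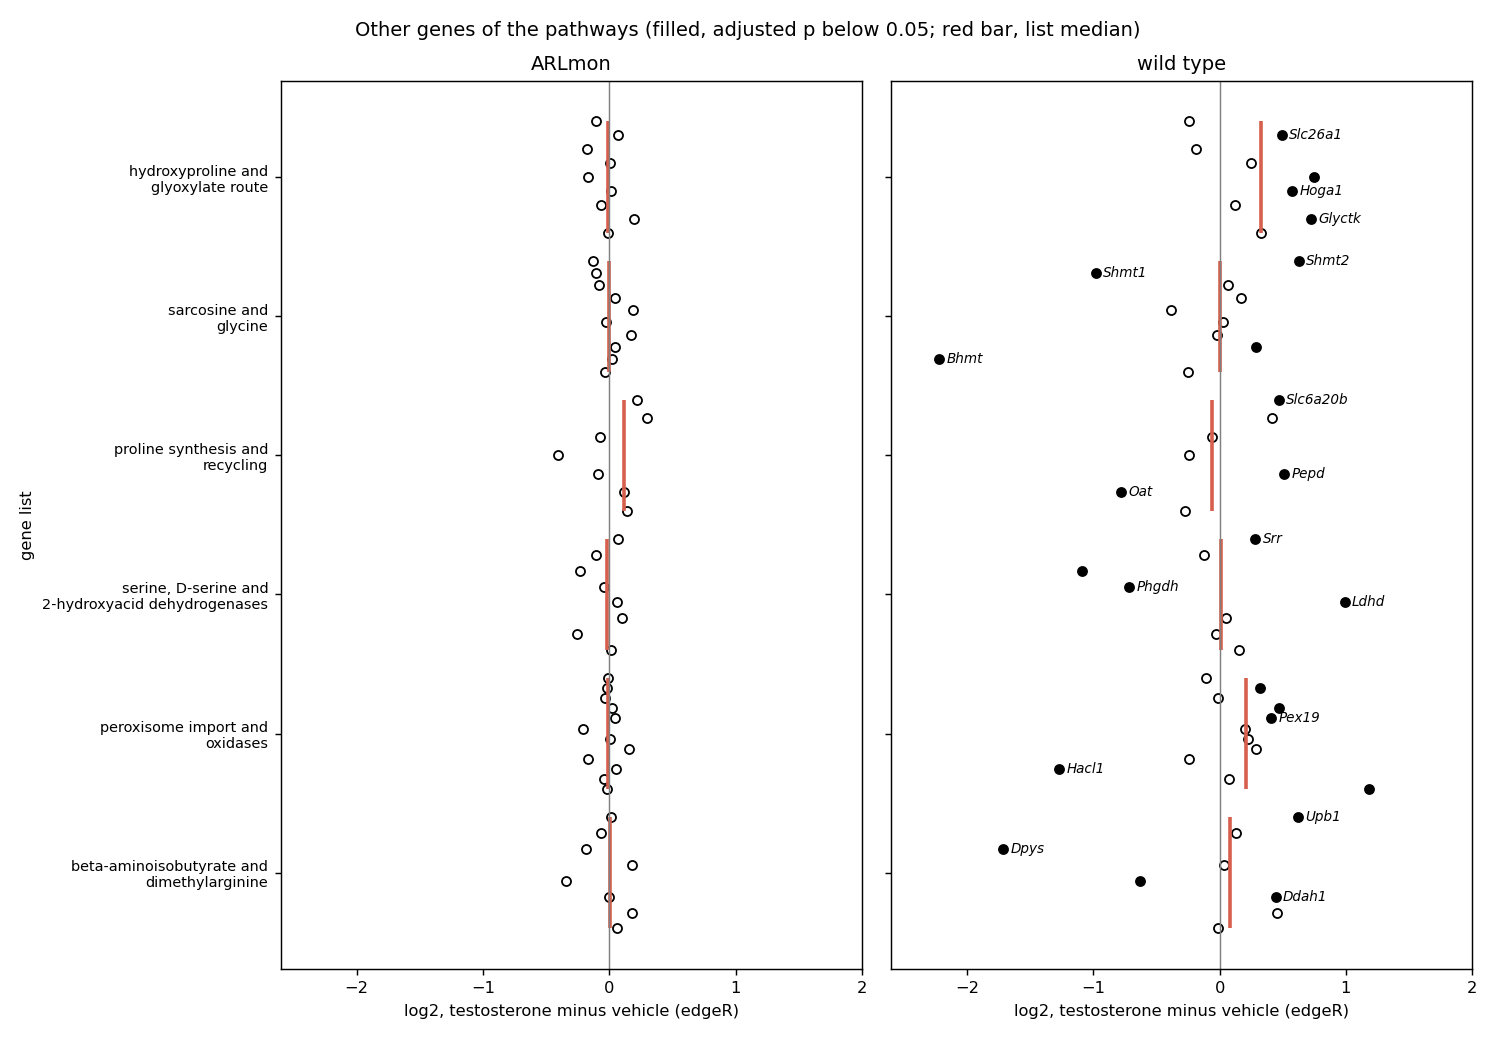
Log2 difference for testosterone minus vehicle (x axes) in ARLmon (left) and wild type (right) for 54 other genes of the pathways, grouped in 6 lists (y axis). Each circle is a gene, filled where its edgeR adjusted p is below 0.05, red bars are list medians, and up to 3 genes with the smallest p per list are named. In wild type 24 circles are filled, and in ARLmon 0.

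Across the 20 libraries, log2 CPM of Hao2 and Prodh2 ran opposite to that of Grhpr, Dao and Pipox. Pearson's r was 0.894 between Hao2 and Prodh2 and 0.969 between Grhpr and Dao. That of Hao2 with Grhpr, Dao and Pipox was -0.783, -0.818 and -0.721, and that of Prodh2 was -0.592, -0.689 and -0.788. Ddo had an r of -0.493 with Hao2 and -0.703 with Prodh2. Prodh2 and Prodh had an r of 0.135. Agxt2 followed none of the others closely, with r between -0.102 with Prodh and 0.411 with Pipox, and Prodh had an r of -0.069 with Hao2 and -0.037 with Pipox. These values describe libraries that share 4 groups and are given without a test.

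Of 10835 tested genes averaging 5 CPM or more, Lyplal1, a lysophospholipase-like gene, was most like Hao2 (r = 0.982), followed by the prolactin receptor gene Prlr (0.955) and the cytochrome P450 gene Cyp2c44 (0.949). For Prodh2 they were Alpl, for alkaline phosphatase (0.969), Klhl17 (0.964) and Dpys (0.962). Dao itself led for Grhpr, ahead of Ciao1 (0.962) and Chmp1a (0.961). The genes nearest to Dao were Smpd2, Ggt1, which encodes the glutathione-cleaving enzyme of the brush border, and the peroxisome gene Pex11g (each 0.972). Pipox was closest to Gpr137b (0.967), Slc22a28 (0.963) and the cation exporter gene Slc47a1 (0.957), and Ddo to the zinc transporter gene Slc30a9 (0.94), Aldh5a1 (0.93) and Ptgr2 (0.925).

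Cell markers moved with these groups as well. In wild type with testosterone, 2 of 6 proximal tubule markers rose (Slc27a2 and Slc22a6) and 1 fell (Slc5a2), while Lrp2, Cubn and Slc34a1 were not called. The proximal straight tubule markers Slc7a13, Atp11a, Cyp7b1 and Slc22a30 all rose in wild type. They summed to 4204 to 5437 CPM in wild type testosterone libraries, against 509 to 1093 CPM in wild type vehicle libraries. In ARLmon they were lower, at 216 to 648 CPM with testosterone and 144 to 279 CPM with vehicle. With vehicle, Slc7a13 averaged 1.25 CPM in ARLmon and 170 CPM in wild type, and Atp11a 209 and 459 CPM. Cyp7b1 averaged 4.32 and 94.6 CPM, and Slc22a30 8.98 and 60.7 CPM. These markers differed by unequal factors, and whether they followed cell number or RNA per cell was not tested. The 4 podocyte markers and 2 of 4 hepatocyte markers fell in wild type with testosterone, where 9.36% of all genes were called higher and 6.36% lower. In ARLmon against wild type with testosterone, 4 of 4 podocyte, 3 of 4 endothelium, 2 of 3 tested leukocyte and 2 of 4 thick limb and distal tubule markers were higher. Hepatocyte markers were split, 1 higher and 1 lower, 1 of 4 adipocyte markers was higher, and no collecting duct or adrenal cortex marker was called. Of all genes, 15.6% were called higher and 15.5% lower there. Summed adrenal cortex markers reached 34.9 CPM in ARLmon vehicle library GC078620, against 0.77 to 1.68 CPM in the rest of its group. Summed podocyte markers stood at 428 to 538 CPM in ARLmon testosterone libraries, against 249 to 312 CPM in wild type testosterone libraries. The part of these shifts in the values of the 8 genes was not tested.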

How the data were processed

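Kidney RNA had been made into libraries with a stranded mRNA kit and sequenced on an Illumina instrument, per the labels' protocols. FastQC 0.11.7, HISAT2, SAMtools 1.5, HTSeq 2.7.14 (as listed), DESeq2 and the mm10 build are named in the submitters' processing notes. Settings, annotation and the strand setting of the counting are not given in the sources used here. The authors deposited 4 tables of raw counts per gene, each for 10 libraries, and a table of log2 values for 20550 genes, whose normalization is not stated. The log2 table followed the counts across libraries for the 8 genes (Pearson's r 0.835 for Ddo to 0.999 for Hao2), but ordered the genes differently, so levels between genes rest on the counts.

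The count tables, which held equal values for shared libraries, were joined over 24762 genes, and 12045 values in 1713 genes that a table did not list were set to 0. Column codes such as GC078602 give a library's group but not its replicate number. No libraries of a group were copies (chi-square per degree of freedom at least 5.23). The fit used edgeR 4.0.16 under R 4.3.3, with TMM factors, the filterByExpr filter and the quasi-likelihood test (4 group means, 16 residual degrees of freedom), adjusted by Benjamini-Hochberg over 15549 genes, and called at an adjusted p below 0.05. The test was checked on simulated counts. Log2 CPM used a prior count of 2. Ratios of counts were compared by two-sided exact permutation tests. Alternatives were median-ratio factors, library size alone, no filter or 1 CPM in 5 libraries, DESeq2 1.42.0, limma-voom (limma 3.58.1) and limma on the log2 table. Others were the 10 libraries of a pair alone, each library left out in turn, and the 2 farthest libraries left out (GC078604 and GC078618). Those 2 had the largest absolute scores on the first principal component of log2 CPM after group means were subtracted.

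All 8 genes are named in each comparison, with up to 3 called genes of smallest p per pathway list, and the 3 genes most correlated with each gene called at least once. Positions and exon lengths are those of GENCODE M21 on GRCm38, and promoters those of RefSeq. The 8 genes, the lists and the motifs were chosen with earlier results of these data, or the promoter letters, known. Protein sequences were not used here, and 1 gene that the naming rule selects is not reported here. Figures were drawn with matplotlib 3.10.9.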

Additional observations from a re-analysis of the deposited data

Results flagged for a closer look

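In 40 groups of 5 libraries (8 genes and 2 ratios by 4 groups), 3 single libraries lay far from the rest of their group by Dixon's test, and chance flags about 1 in 20 groups. Hao2 was high in ARLmon testosterone library GC078615, with 1361.3 CPM, where the rest of the group held 946 to 1051 CPM. Prodh was high in ARLmon vehicle library GC078618, with 399.7 CPM, against 221 to 259 CPM in the rest, and in wild type testosterone library GC078611, with 383.5 CPM, against 226 to 260.1 CPM in the rest. GC078618 also had the highest Grhpr, Dao, Agxt2 and Prodh2 values of its group.

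The testosterone effect differed between the genotypes for 2 of the 8 genes by the interaction test in edgeR, which called 4.77% of all genes. The effect in ARLmon minus that in wild type was 2.74 for Hao2 and 1.80 for Prodh2 on the log2 scale. For Hao2 it ran from 2.58 to 2.94, and for Prodh2 from 1.72 to 1.91, when each library was left out in turn, and both stayed past the threshold.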

How the results depend on the processing

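No paired analysis was possible because the columns carry library codes and not the replicate numbers of the labels. Hao2 and Prodh2 kept direction and call in wild type with testosterone, in ARLmon against wild type with testosterone and in the interaction under all alternatives run. When library size alone set the scale, the median log2 difference over all genes moved to -0.18, from -0.03, for testosterone in wild type, with 897 called higher and 2687 lower in place of 1455 and 989. For ARLmon minus wild type with testosterone it moved to 0.28, from 0.04, with 5690 higher and 1213 lower in place of 2431 and 2411, and with vehicle the split was 550 higher and 275 lower in place of 310 and 370. The calls of Dao and Pipox in wild type and of Ddo between genotypes were lost there. The cause was not tested.

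Calls among the 8 genes for testosterone in wild type numbered 2 in place of 4 with the pair of groups alone, and 3 to 5 with 1 library left out. Over all genes these settings called 1926 and 1753 to 2644, in place of 2444. For ARLmon minus wild type with vehicle they numbered 0 on the log2 table and with the pair alone, 2 without the 2 farthest libraries, and 0 to 2 with 1 library left out, in place of 1. Of all genes, 699 were called on the log2 table and 894 without the 2 farthest libraries, in place of 680. For ARLmon testosterone minus wild type vehicle they numbered 4 in DESeq2, 1 with median-ratio factors, 1 with no filter, and 0 to 3 with 1 library left out, in place of 0. The same settings called 751, 485, 425 and 339 to 571 of all genes, in place of 471. The interaction called 4 without the 2 farthest libraries and 2 to 4 with 1 left out, in place of 2. Its calls over all genes there were 926 and 579 to 967, in place of 741. Counts over all genes moved to 3710 (wild type) and 7528 (genotypes with testosterone) on the log2 table, 330 (genotypes with vehicle) with the pair alone, 1211 without GC078604 and 413 without GC078605 in place of 680, and, for ARLmon testosterone minus wild type vehicle, 751 in DESeq2 and 255 with the pair alone.

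Differences that turned sign were small and uncalled. For testosterone in ARLmon without the 2 farthest libraries, Prodh2 was 0.019 and Prodh 0.03. For ARLmon minus wild type with testosterone, Agxt2 was 0.206 on the log2 table and 0.221 by library size, and Prodh 0.086 and 0.076. The Ddo interaction was 0.077 and 0.046. With 1 library left out, values for testosterone in ARLmon ran from -0.028 to 0.115 for Agxt2, -0.012 to 0.136 for Ddo, -0.161 to 0.019 for Prodh2 and -0.218 to 0.03 for Prodh. Hao2 between genotypes with vehicle ran from -0.075 to 0.269, and Agxt2 with testosterone from -0.096 to 0.051. The Prodh2 to Prodh log2 ratio ran from -0.008 to 0.089 for testosterone in ARLmon and from 0.554 to 0.815 between genotypes with vehicle. The Dao to Ddo log2 ratio ran from -0.165 to 0.034 between genotypes with vehicle and from -0.472 to -0.238 with testosterone. With 5 libraries a group, uncalled differences are bounded by their intervals and are not shown to be 0.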
